A study of Mus musculus with 6 samples.

Results

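TRIM proteins, named for a tripartite motif of a RING domain, B-boxes and a coiled coil, are a large family of mostly ubiquitin ligases whose differing C-terminal domains set their partners. Many serve antiviral defence: they are induced by interferon, restrict viruses, or attach ubiquitin to sensors of foreign nucleic acid and to their adaptors. Others repress transcription in the nucleus, bind microtubules or regulate RNA. The family was taken here as every gene whose annotated symbol is Trim followed by a number and an optional letter. On the array 58 such genes, of 18193 genes in all, had a probe set paired with 1 gene, and the brightest probe set of each was used.

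All samples were Ba/F3-N cells, which are Ba/F3 cells of mouse bone marrow origin transformed with oncogenic NRAS carrying the G12D change. Of 6 samples, 3 received 1 µM N-arachidonoyl dopamine (NADA) and 3 received an equal volume of vehicle, and RNA was taken after 12 hours. NADA joins dopamine to a fatty acid chain and is known as a ligand of vanilloid and cannabinoid receptors. Both groups carry the introduced NRAS, so the comparison concerns NADA within 1 transformed line, at 1 dose and 1 time. Nothing in the labels says whether the replicates were grown separately, so each p-value reflects only how far these arrays differ, a spread that may be technical.

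Levels are deposited array intensities on a linear scale, and changes are log2 fold changes of NADA over vehicle with the standard error of limma's fit. Intensities of different genes come from different probes and are not compared as levels. Marker intensities are summed below, and such a sum weighs each gene by the strength of its probes. Probe sets averaging under 39.0, the median over the non-control ones, were counted as dim, which left 38 of the 58 TRIM genes and 10520 genes in all for testing. A gene is said to have risen or fallen where limma's adjusted p over all genes tested was under 0.05. The members nearest the limit were Trim62 (mean intensity 36.2) below it and Trim43a (42.3) above it. Trim2 and Trim17 had vehicle means of 38.5 and 38.9, under the limit, and were tested only because of their NADA signal.

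The arrays of the groups also differed outside the family. Bacterial poly-A RNAs (dap, lys, phe and thr), which are spiked into RNA ahead of labelling, averaged 8.14 ± 0.01 log2 units in vehicle and 8.72 ± 0.21 in the NADA group (SD over 3 arrays each). For Actb, the log2 ratio between its 3' and 5' control probe sets was 0.67 ± 0.04 in vehicle and 1.06 ± 0.05 in NADA. For Gapdh this ratio was -0.22 ± 0.03 in vehicle and -0.07 ± 0.06 in NADA. Hybridization control probe sets averaged 9.93 ± 0.10 log2 units in vehicle and 10.08 ± 0.05 in NADA. Each of these measures separated the groups without overlap (exact permutation p = 0.1, two-sided, the smallest that 3 against 3 arrays allow). Their part in the TRIM results was not tested, and values scaled to the poly-A RNAs are given beside the deposited ones. Of 13 pro-B and Ba/F3 markers on the array 6 were above the dim limit, including the IL-3 receptor genes Il3ra, Csf2rb and Csf2rb2, whereas the B-lineage factors Ebf1 and Pax5 and the recombinase genes Rag1 and Rag2 were dim in these cells. Of the 6, 5 rose and 0 fell, against 35.9% and 37.6% of all genes tested. Csf2rb was at 1.75 ± 0.03 and Csf2rb2 at 2.35 ± 0.04 on the log2 scale. The summed intensity of all 13 was 5975 to 6214 in vehicle and 13775 to 13853 in NADA. Most of this sum came from Ptprc (mean 4034 in vehicle and 6449 in NADA), Csf2rb (990 and 3337) and Csf2rb2 (703 and 3574). The 7 dim markers added little to it. Of 7 macrophage and granulocyte markers 3 were above the dim limit and rose. The summed intensity of all 7 was 362 to 401 in vehicle and 639.9 to 677 in NADA. The markers that rose were Adgre1 (log2 1.36 ± 0.07), Cd68 (0.65 ± 0.06) and Csf1r (0.18 ± 0.08), while Cd14, Itgam, Mpo and Elane were dim. Adgre1 (mean 109 in vehicle and 280 in NADA) and Cd68 (151 and 237) made up most of the rise in that sum. The part of either marker shift in the TRIM results was not tested.

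Among the 38 TRIM genes tested 19 rose and 9 fell, and 10 were not called. The share called, 73.7%, was close to that of all genes tested, 73.5%. Of all genes 35.9% rose and 37.6% fell. The median log2 fold change was 0.13 over the family and 0.0089 over all genes. The larger changes ran upward: 7 members rose at least 2-fold, a size that 4.93% of all genes reached, and 0 fell at least 2-fold, against 6.06% of all genes. The 7 include Trim2, which, like Trim17 among the 19, was tested only because of its NADA signal. Neither could have counted as a fall. The 3 NADA values lay apart from the 3 vehicle values in 32 of 38 members, against 76.0% of all genes.

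**Figure D1:**
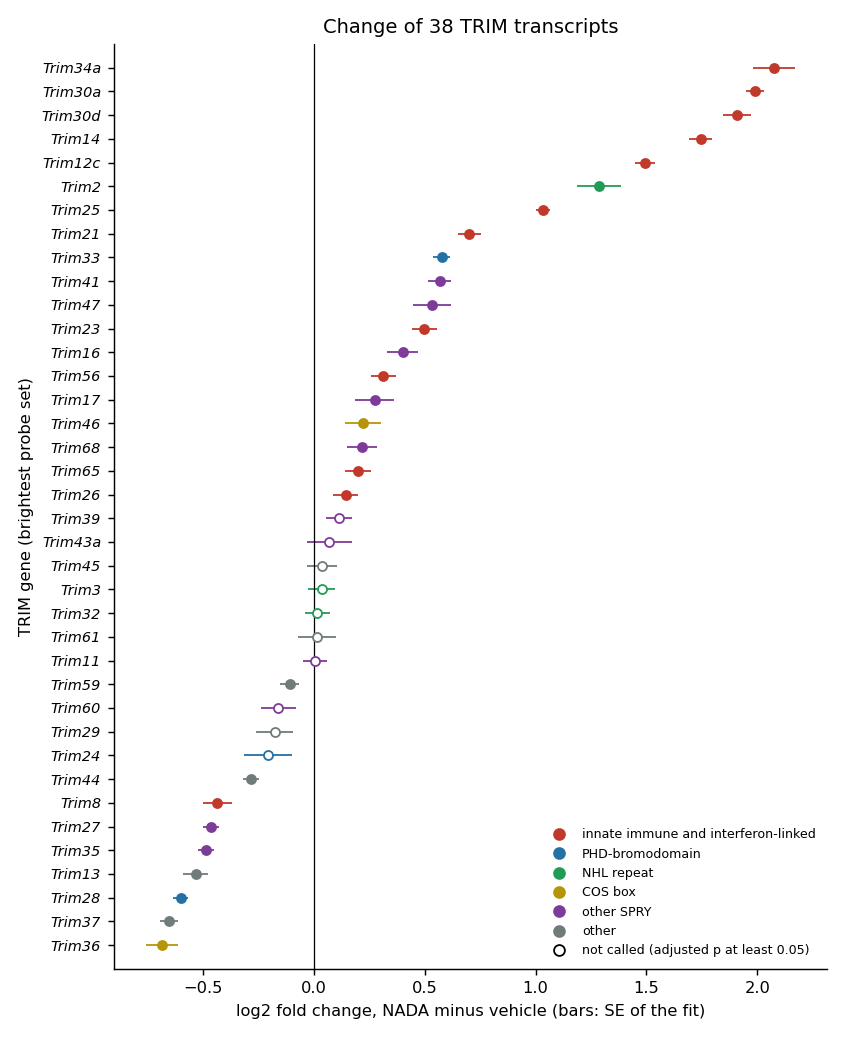
Log2 fold change (x axis, NADA minus vehicle, with the standard error of limma's fit as bars) of the brightest probe set of 38 TRIM genes (y axis), 3 arrays per group. Colours give the class of the gene and open circles mark the 10 genes not called; the 7 genes from Trim25 to Trim34a lie above 1 and none lies below -0.68.

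Scaling every array to the poly-A RNAs sets a different zero. With dap, lys, phe and thr it lowers each log2 fold change by 0.58, moves the median of all genes to -0.57 and that of the TRIM family to -0.45. The split over all genes then turns from 3775 higher and 3958 lower to 741 higher and 7992 lower. In the family 7 members rose and 24 fell. The 7 were the same genes that rose at least 2-fold as deposited (Trim34a, Trim30a, Trim30d, Trim14, Trim12c, Trim2 and Trim25), and they kept their direction and call, while the other 12 rises were lost or turned. The 9 falls stay negative by construction, since the scaling lowers every value alike. All further values are as deposited, relative to the bulk of genes.

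The innate immune and interferon-linked class held the strongest rises. Of 17 members on the array 12 were above the dim limit, of which 11 rose (91.7%, against 35.9% of all genes) and 1, Trim8, fell. Its median log2 fold change was 0.87, against 0.02 over the 26 other TRIM genes, of which 8 rose and 8 fell. Scaled to the poly-A RNAs, 6 members of the class still rose (Trim34a, Trim30a, Trim30d, Trim14, Trim12c and Trim25). The class was drawn up knowing that interferon-stimulated genes as a whole were higher in these NADA samples, so its direction is no independent evidence. Each gene was put in a single class, by known role or C-terminal domain. Genes placed elsewhere, including some that fell, may also have immune roles, so the contrast with the other 26 depends on this sorting.

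**Figure D2:**
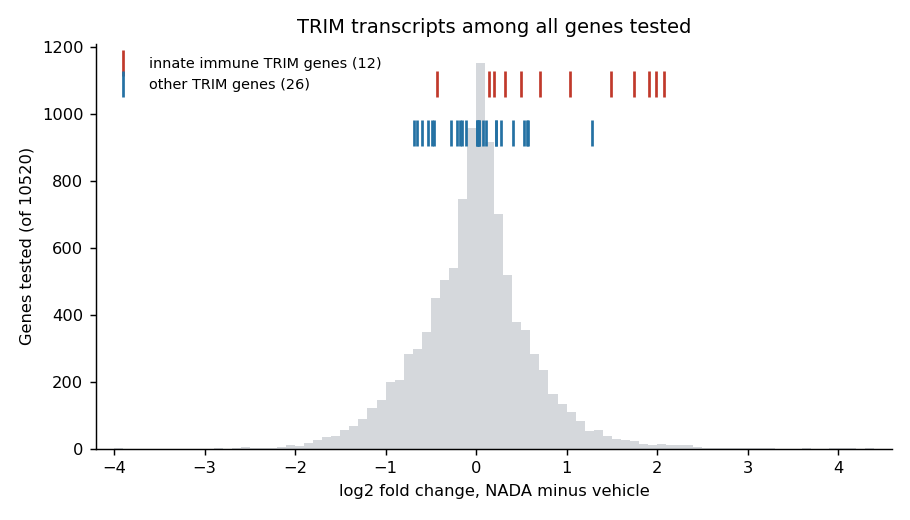
Histogram of log2 fold changes (x axis, NADA minus vehicle) of all 10520 genes tested (y axis, number of genes), with a tick for each of 12 innate immune TRIM genes and 26 other TRIM genes. In the upper row 5 ticks lie between 1.49 and 2.08, while the lower ticks run from -0.68 to 0.58 apart from Trim2 at 1.29.

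Trim34a, a gene with a SPRY domain in the Trim cluster on chromosome 7, had the highest change in the family. Its intensities were 39.8, 49.5 and 47.6 in vehicle and 218, 186 and 173 in NADA. Every NADA array was well above every vehicle array, a 4.22-fold difference (log2 2.08 ± 0.09, adjusted p = 7.33e-12). Trim30a, known as a brake on Toll-like receptor signalling to NF-kB, stood at 281, 268 and 281 in vehicle and at 1100.2, 1072 and 1122 in NADA. It rose 3.97-fold (1.99 ± 0.04, adjusted p = 1.43e-15), with a gap between the groups many times the spread within them. Its neighbour Trim30d read 62.9, 66.7 and 59.5 in vehicle and 245, 234 and 229.5 in NADA, a 3.75-fold rise (1.91 ± 0.06, adjusted p = 2.05e-13). Trim12c, a mouse relative of the retrovirus restriction gene Trim5, read 259, 269.6 and 273 in vehicle and 775, 734 and 748 in NADA. The groups were again far apart, and the rise was 2.81-fold (1.49 ± 0.04, adjusted p = 4.79e-14).

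These 4 genes lie together. In the RefSeq gene order of GRCm38.p6 the protein-coding genes Trim6, Trim34a, Trim5, Trim12a, Trim34b and Trim12c follow each other on chromosome 7, and after 1 further gene come Trim30b, Trim30c, Trim30a and Trim30d. All 4 of this cluster that were above the dim limit rose, against 35.9% of all genes tested. Trim6, Trim5 and Trim12a were dim (mean intensities 31.4, 3.73 and 28.6), and Trim34b, Trim30b and Trim30c had no probe set of their own. Because the cluster arose by duplication, its probe sets can bind more than 1 of its transcripts, so the 4 rises may not be separate observations. The brightest and the second probe set of Trim30a are of a type (suffix a) that can detect several transcripts of a gene. The brightest probe sets of Trim34a and Trim30d carry no such suffix, while the second of Trim34a does.

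The promoters of this group are shown because several of the members that rose share a short sequence there. The core of the interferon-stimulated response element, searched as GAAA, 2 bases of any kind and GAAA on both strands in the RefSeq windows of 300 bases (250 before and 50 after each start, build GRCm38.p6), was found in 7 of the 14 risen members that had a window (Trim12c, Trim2, Trim21, Trim26, Trim30a, Trim30d and Trim34a). Of the members that rose at least 2-fold 5 of 6 with a window held it, Trim25 being the one without a match, and Trim14 had no window. None of 6 fallen and none of 7 uncalled members with a window held it, against 3.99% of 27025 genes with any window. Of the dim members 2 of 20 held it, Trim12a and Trim5. The share among all genes that rose was not counted, so these counts do not tie the motif to rising. Trim30a and Trim30d have nearly the same promoter, as given below, and Trim2 was tested only because of its NADA signal. Below, capitals mark the matches, and each stretch is read 5′ to 3′ on the gene's own strand and ends at or before the base preceding the start site.
Trim30a, chr7:104465194-104465274, minus strand: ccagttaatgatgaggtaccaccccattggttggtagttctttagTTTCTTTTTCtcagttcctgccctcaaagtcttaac
Trim30d, chr7:104507850-104507935, minus strand: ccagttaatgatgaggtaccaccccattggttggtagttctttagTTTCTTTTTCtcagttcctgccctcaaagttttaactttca
Trim12c, chr7:104353350-104353423, minus strand: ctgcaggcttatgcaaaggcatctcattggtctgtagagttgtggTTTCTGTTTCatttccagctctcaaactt
Trim5, chr7:104288107-104288200, minus strand: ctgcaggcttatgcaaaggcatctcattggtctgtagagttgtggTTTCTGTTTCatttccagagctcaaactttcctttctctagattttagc
Trim26, chr17:36836941-36837040, plus strand: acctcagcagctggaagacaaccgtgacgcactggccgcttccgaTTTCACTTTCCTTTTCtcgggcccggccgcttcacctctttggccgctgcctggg

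All 5 stretches carry the reverse form of the core, and in Trim26 a pair of matches overlaps. Aligned on the motif without gaps, 226 of 245 bases before the start (92.2%) were identical between Trim30a and Trim30d. In Trim34a, Trim21, Trim2 and the dim Trim12a the match lies just after the annotated start, and Trim30a has a second match there. For Trim34a and Trim21 the site with its nearest bases is given.
Trim34a, chr7:104244457-104244486, plus strand: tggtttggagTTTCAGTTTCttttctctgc
Trim21, chr7:102565447-102565476, minus strand: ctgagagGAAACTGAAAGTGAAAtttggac

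Trim21 holds 2 overlapping matches in forward orientation. Over all bases before both starts, Trim12c and Trim5 matched at 106 of 230 bases (46.1%) when aligned on the motif without gaps. An inserted or lost base would lower this share, so it cannot show how far their likeness extends. In the stretches printed above, all bases ahead of the motif were identical. A STAT-type site, TTCNNNGAA on both strands, was in the windows of 2 of 27 tested members (Trim45 and Trim46), or 7.41%, against 9.55% of all genes. A match describes letters in these windows and does not show binding.

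Trim14, which lacks a RING domain and supports signalling from the adaptor MAVS, rose outside the chromosome 7 cluster. It read 136, 135 and 131 in vehicle and 469, 448 and 427 in NADA, a 3.35-fold rise (log2 1.75 ± 0.05, adjusted p = 5.55e-14). Trim25, the ligase that modifies the RNA sensor RIG-I, read 1618, 1577 and 1587 in vehicle and 3408, 3228 and 3162 in NADA. The 2.05-fold rise (1.03 ± 0.03, adjusted p = 1.33e-13) was as tight between arrays as those of the cluster. Trim21, a cytosolic receptor for antibody-coated pathogens, read 159, 154 and 154 in vehicle and 252, 257 and 250.3 in NADA (0.70 ± 0.05, adjusted p = 2.52e-09). It rose relative to the bulk of genes, whereas after scaling to dap, lys, phe and thr its value was 0.12 and not called.

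Smaller rises in this class were those of Trim23, whose protein ends in an ARF-like GTPase domain, from 195, 206 and 216 to 295, 301 and 275 (log2 0.50 ± 0.06, adjusted p = 4.98e-07), and of Trim56, a ligase tied to STING signalling, from 199, 203 and 211 to 269, 237 and 257 (0.31 ± 0.06, adjusted p = 1e-04). Both groups stayed apart in each gene. Trim65, a ligase of the RNA sensor Ifih1, read 169.7, 165 and 184 in vehicle and 201, 201 and 192 in NADA (0.20 ± 0.06, adjusted p = 0.00526). Trim26 read 119, 124 and 121 in vehicle and 132, 134 and 136 in NADA (0.14 ± 0.06, adjusted p = 0.0328). These gaps were small, and Trim26 lost its call when any of 4 arrays was left out (adjusted p up to 0.0943). After scaling to dap, lys, phe and thr, Trim23 was at -0.079, Trim56 at -0.26, Trim65 at -0.38 and Trim26 at -0.43. Trim8, a RING protein acting in cytokine and NF-kB signalling, went the other way. Its intensities were 274, 242 and 238 in vehicle and 184, 200.1 and 174 in NADA, with no overlap (-0.43 ± 0.07, adjusted p = 1.89e-05).

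**Figure D3:**
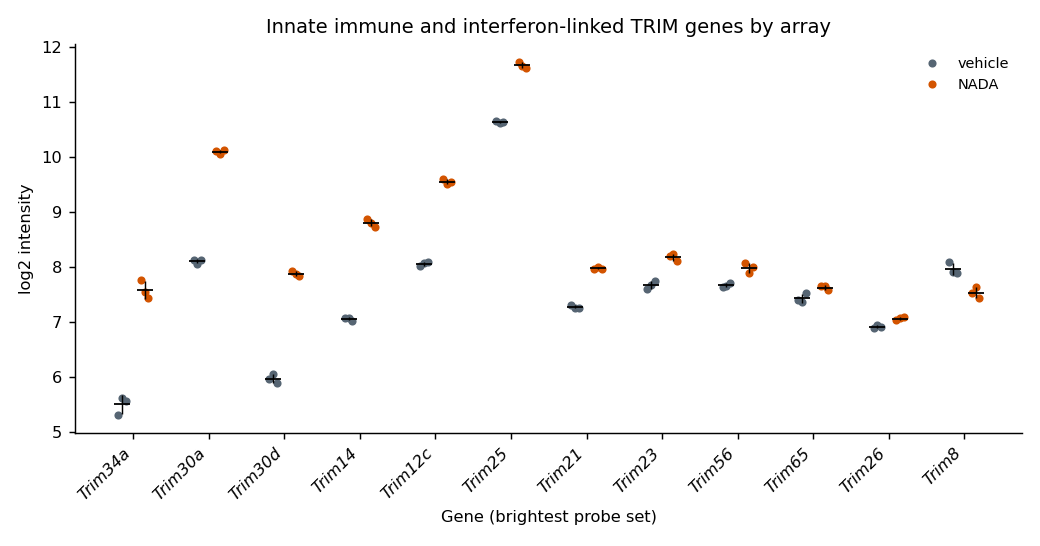
Log2 intensity (y axis) of the brightest probe set of the 12 innate immune TRIM genes (x axis, ordered by change) on each of 3 vehicle and 3 NADA arrays; points are arrays, with the group mean and SD in black. In 11 genes every NADA point lies above every vehicle point, and in Trim8 every NADA point lies below; heights of different genes are not comparable.

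The PHD-bromodomain class, nuclear cofactors that read chromatin, was split. Trim28, the corepressor recruited by KRAB zinc finger proteins, read 3239, 3259.7 and 3141 in vehicle and 2164, 2199 and 2003 in NADA. It fell by 0.60 ± 0.04 on the log2 scale (adjusted p = 2.25e-10), and its second probe set by 0.80. Trim33, which acts on SMAD signalling, read 831, 825 and 845 in vehicle and 1292, 1237 and 1202 in NADA (0.58 ± 0.04, adjusted p = 6.13e-10; second probe set 0.61), and was at -0.0017 after scaling to dap, lys, phe and thr. Trim24, a nuclear receptor cofactor, was not called (-0.21 ± 0.11, adjusted p = 0.0996). Its NADA arrays spread widely, at 209.9, 183 and 138, against 189, 203 and 212 in vehicle. Without NADA replicate 1 it was called (-0.34, adjusted p = 0.00395), and with the replicate number as a block its adjusted p was 0.0394. Trim66 was dim.

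Among NHL repeat members, which include RNA-binding ligases, 1 of 3 tested was called (33.3%, against 73.5% of all genes). Trim2, known for ubiquitination of neurofilament in neurons, read 37.6, 35.6 and 42.3 in vehicle and 104, 97.3 and 80.8 in NADA. It rose 2.44-fold (log2 1.29 ± 0.10, adjusted p = 5.05e-09), the only member outside the innate immune class to exceed 2-fold. This probe set is of a type (suffix x) that can bind other transcripts, and its vehicle signal was under the dim limit. With 32 added before log2 the change was 0.84, and the other 2 probe sets above the limit gave 0.60 and 0.88. Trim3 and Trim32 had log2 fold changes of 0.04 ± 0.06 and 0.02 ± 0.06 and were not called, and Trim71 was dim.

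In the COS box class, which binds microtubules, the 2 tested members went opposite ways. Trim36 had the lowest change in the family, from 128, 135 and 132 in vehicle to 86.8, 85.3 and 74.3 in NADA (log2 -0.68 ± 0.07, adjusted p = 2.19e-07), and its second probe set gave -0.94. Trim46, which organises microtubules at the start of the axon, read 45.3, 51.2 and 47.0 in vehicle and 57.8, 52.7 and 57.0 in NADA. This small rise (0.22 ± 0.08, adjusted p = 0.0211) lost its call when any of 4 arrays was left out (adjusted p up to 0.0839) and fell to 0.14 with 32 added before log2. Trim54, Trim63, Trim67 and Trim9, known from muscle and neurons, were dim.

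Of 11 tested members in the class of other SPRY proteins 5 rose and 2 fell (63.6% called, against 73.5% of all genes). Trim35 read 1594, 1627 and 1507 in vehicle and 1120.4, 1146 and 1109.9 in NADA (log2 -0.49 ± 0.04, adjusted p = 4.19e-09). Trim27, also called Ret finger protein, read 1729, 1868 and 1815 in vehicle and 1302, 1314 and 1312 in NADA (-0.46 ± 0.03, adjusted p = 4.49e-09). Both fell with clear gaps between the groups, though the size for Trim27 depended on the probe set. Its 4 probe sets above the limit gave -0.46, -0.35, -0.75 and -1.19, the last from its only one outside types x, s and a.

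The rises of this class were moderate. Trim41 read 170.5, 185 and 176 in vehicle and 262, 267 and 259 in NADA (log2 0.57 ± 0.05, adjusted p = 4.88e-08). Trim47 rose from 67.4, 62.0 and 78.9 to 104, 95.8 and 99.9 (0.53 ± 0.08, adjusted p = 2.86e-05). Trim16, which lacks a RING and takes part in the response to damaged endomembranes, rose from 62.9, 68.6 and 65.6 to 90.3, 86.2 and 83.9 (0.40 ± 0.07, adjusted p = 7.41e-05). After scaling to dap, lys, phe and thr these 3 were at -0.010, -0.045 and -0.18 and not called. Trim17 (0.27 ± 0.09) and Trim68 (0.22 ± 0.07) rose as well, but Trim17 lost its call without vehicle replicate 1 (adjusted p = 0.057) or NADA replicate 2 (adjusted p = 0.0529), and Trim68 without vehicle replicate 2 (adjusted p = 0.0607). With a floor of 50 both calls were lost, Trim17 at 0 and Trim68 at an adjusted p of 0.0581. Trim11, Trim39, Trim43a and Trim60 were not called, with changes from -0.16 to 0.11, though Trim60 was called lower and Trim39 higher under some alternatives.

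In the remaining class 4 of 7 tested members fell and 0 rose. The share called was 57.1%, against 73.5% of all genes, of which 37.6% fell and 35.9% rose. Trim37, a ligase of centrosomes and peroxisomes, read 743, 723 and 757 in vehicle and 479.8, 481 and 454 in NADA (log2 -0.65 ± 0.04, adjusted p = 5.06e-10). All 5 of its probe sets above the limit fell, with changes from -0.83 to -0.55. Trim13, anchored in the endoplasmic reticulum, read 314, 308 and 299 in vehicle and 195, 219.7 and 223 in NADA (-0.53 ± 0.06, adjusted p = 3.21e-07). Trim44, which has a zinc finger of the deubiquitinase type in place of a RING, fell from 994, 988 and 1004 to 830.3, 806 and 819.9 (-0.28 ± 0.04, adjusted p = 1.91e-06).

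The groups of these 3 genes did not overlap. Trim59 read 369.7, 376 and 373 in vehicle and 344, 345 and 350.1 in NADA. It fell by only 0.11 ± 0.04 on the log2 scale (adjusted p = 0.0338) from its brightest probe set, a call lost when any of 5 arrays was left out (adjusted p up to 0.0992). Its second probe set gave -0.69, and the mean of both -0.40. Trim29, Trim45 and Trim61 were not called (-0.18 ± 0.08, 0.04 ± 0.07 and 0.02 ± 0.09), though Trim29 was called lower under some alternatives.

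**Figure D4:**
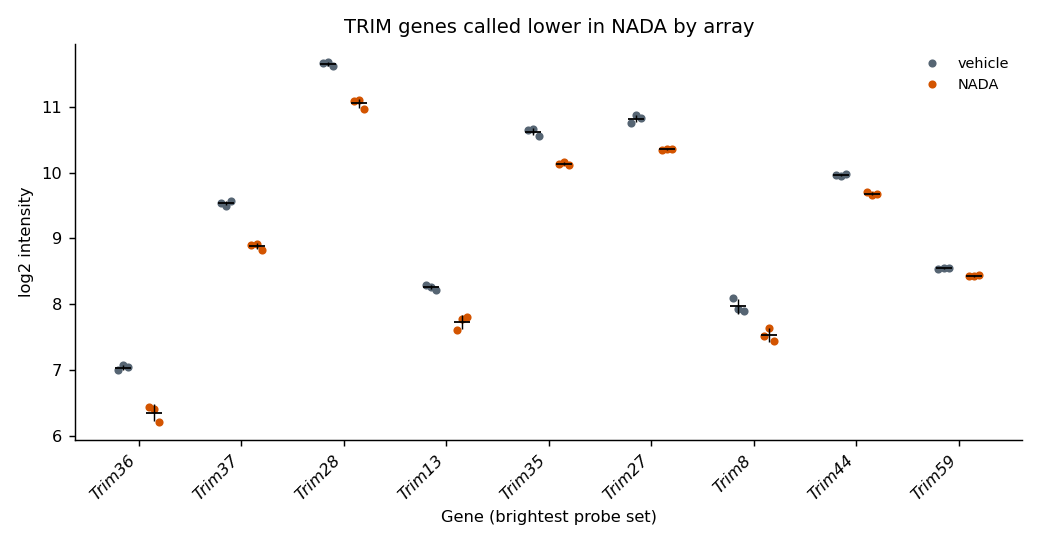
Log2 intensity (y axis) of the brightest probe set of the 9 TRIM genes that fell (x axis, ordered by change) on each of 3 vehicle and 3 NADA arrays; points are arrays, with the group mean and SD in black. Every NADA point lies below every vehicle point of its gene. The largest fall in log2 fold change was that of Trim36 (-0.68) and the smallest that of Trim59 (-0.11).

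Several probe sets of 1 gene give a check within the array, though they share the same RNA. Of the 38 tested genes 16 had more than 1 probe set above the dim limit, and in all 16 these had changes of the same sign. Part of this sign was set by the filter, since 3 of the less bright probe sets passed the limit only through their NADA signal. These were 1 of Trim34a (mean 24.3 in vehicle and 55.9 in NADA), 1 of Trim30d (32.5 and 64.2) and 1 of Trim2 (34.9 and 64.9). The brightest probe set of Trim2 passed in the same way (38.5 and 94.1). In 15 of the 16 genes every probe set above the limit was also called, the exception being Trim8, whose second probe set gave -0.11. Over all TRIM probe sets above the limit 51 of 62 were called, against 70.8% of all probe sets. These counts include the probe sets that passed only through NADA. Sizes differed more than signs did. The 3 probe sets of Trim25 gave 1.03, 1.10 and 0.39, those of Trim21 0.70 and 0.25, those of Trim34a 2.08 and 1.21 and those of Trim30d 1.91 and 0.98. Those of Trim30a gave 1.99 and 2.05.

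**Figure D5:**
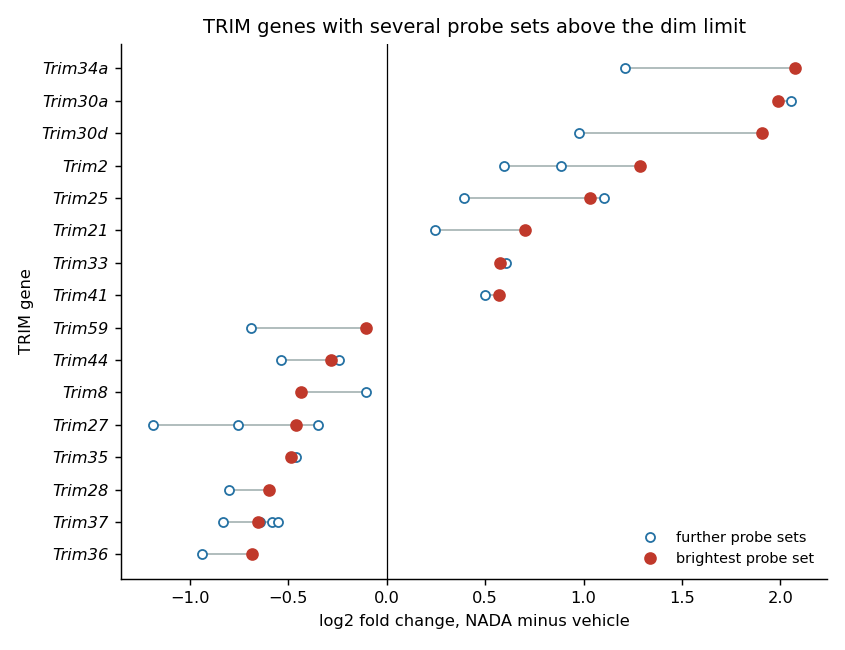
Log2 fold change (x axis, NADA minus vehicle) of each probe set above the dim limit in the 16 TRIM genes with more than 1 (y axis); filled points are the brightest probe set and open points the others. No gene has points on both sides of 0. Open points of Trim34a, Trim30d and Trim2 with vehicle means of 24.3, 32.5 and 34.9 passed the limit only through NADA. So did the filled point of Trim2 (vehicle mean 38.5). The points of Trim30d, Trim34a and Trim27 lie furthest apart, by 0.93, 0.86 and 0.84.

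The 20 dim members had mean intensities from 3.73 to 36.2 and are given no direction. They include Trim10, Trim15, Trim31 and Trim40, which lie next to Trim26 on chromosome 17, as well as Trim7, Trim42, Trim62, Trim69, Trim72, Trim75 and Trim80. Trim6 of the chromosome 7 cluster read 24.1, 24.5 and 24.3 in vehicle and 38.4, 38.7 and 38.5 in NADA, just under the limit in NADA. With no dim filter 3 were called (Trim6, Trim12a and Trim5) and 17 were not, while 8233 of all 18193 genes were called. Those genes include the 10520 above the dim limit, of which 73.5% were called in the main fit. Their share is no like measure for dim members, and that of dim genes alone was not counted.

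TRIM genes that carry other symbols, and the partners of the family, were read from lists of their own, drawn up with results of these data known. Pml, the organiser of nuclear bodies, rose from 261, 238 and 253 to 315, 310.1 and 311 (log2 0.32 ± 0.05, adjusted p = 2.64e-05). Mefv, the pyrin gene, read 86.7, 84.7 and 79.3 in vehicle and 62.9, 68.5 and 81.7 in NADA, so the highest NADA array lay among the vehicle arrays. It fell by 0.24 ± 0.09 on the log2 scale (adjusted p = 0.0225), and Mid1 and Mid2 were dim. Of 16 RIG-I and cGAS pathway partners tested 12 rose and 2 fell, with a median of 0.40. Over all genes tested 35.9% rose and 37.6% fell, which applies to the interferon list below as well. The RNA sensors Ddx58 (RIG-I, the substrate of Trim25) and Ifih1 rose by 2.42 ± 0.05 and 1.90 ± 0.06, and the kinase Tbk1 by 0.85 ± 0.03. Otud4, a deubiquitinase of the adaptor MAVS, and the DNA sensor Cgas fell by 0.97 ± 0.04 and 1.06 ± 0.06 on the log2 scale. Among 11 interferon signalling genes 9 rose and 1 fell (median 0.76), led by p by Irf9 (2.38 ± 0.05), the deconjugase Usp18 (2.14 ± 0.05), the receptor chain Ifnar2 (1.10 ± 0.04) and Stat2 (1.80 ± 0.07).

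Partners of the PHD-bromodomain members, a list of corepressor partners that also holds Smad2, Smad3, Smad4 and Rara, were mostly lower, as was Trim28. Of 16 tested 10 fell and 4 rose, whereas 37.6% of all genes fell and 35.9% rose. The median was -0.27 against 0.0089 over all genes. Cbx5, the heterochromatin protein HP1 alpha that binds Trim28, fell by 1.66 ± 0.05 on the log2 scale, the deacetylase Hdac2 by 0.81 ± 0.04 and Pphln1, of the complex that silences with Setdb1, by 0.70 ± 0.05. Atf7ip, a cofactor of the methyltransferase Setdb1, rose by 0.66 ± 0.04, and Setdb1 itself fell by 0.35 ± 0.05. Among the SMAD genes of the list, which belong to the pathway Trim33 acts on, Smad4 rose by 0.41 ± 0.03, and Smad2 and Smad3 fell by 0.37 ± 0.05 and 0.29 ± 0.05 on the log2 scale. Counts in these lists are as deposited, and the scaling that lowers every log2 fold change by 0.58 would carry each value under that size below 0.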

How the data were processed

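RNA from 6 samples was hybridised to Affymetrix Mouse Genome 430 2.0 arrays, 1 per sample. The deposited intensity values, 1 per probe set, are linear; the submitters' processing notes name MAS5 and RMA without version or role. Array medians ran from 37.9 to 39.1, so no further scaling was applied before taking log2, and changes are relative to the bulk of genes. Of 45037 non-control probe sets 34945 had 1 gene in the platform annotation, 932 several and 9160 none; 34741 of the first matched a RefSeq gene table (GRCm38.p6) by gene ID, and 0 symbols changed. Probe sets with several genes, 5 of them with a TRIM gene, were not used.

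NADA was compared with vehicle in limma 3.58.1 (R 4.3.3; lmFit and eBayes with intensity trend, two-sided, group as the only term, Benjamini-Hochberg over 10520 genes). The fit was first tested on simulated data. With 3 arrays per group their number limits precision. Members, classes, lists and motifs were chosen with earlier results of these data known. Values of every array are given for called members without overlap among the 10 highest and 10 lowest changes and for called innate immune and PHD-bromodomain members; the lists name the 4 smallest p and the TRIM genes under other symbols. The arrays of Trim6, Trim16, Trim24, Trim46 and Trim47, and the genes Cgas, Setdb1, Smad2, Smad3 and Smad4, were added after their values were seen. Alternatives covered scaling, dim filter, floor or added constant, probe set choice, trend, array weights, thresholds, a replicate block and leaving out each array. Promoter sequences are RefSeq's (GRCm38.p6), matched by symbol for 47 of 58 members. Plots used matplotlib 3.10.9.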

Additional observations from a re-analysis of the deposited data

How the results depend on the processing

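The following 3 choices moved no member across the threshold: 32 added before log2, the mean of all passing probe sets, and a dim filter on the mean of log2 values (chosen after seeing the data). Outside the poly-A scalings and the fold minimum, rises numbered 13 to 21 and falls 8 to 11, against 19 and 9. Some alternatives also changed how many members were tested, which was 38 in the main fit. The 13 rises were of 24 tested with the dim filter at the 70th percentile. The 21 were of 58 with no dim filter, and leaving out types x, s and a gave 15 of 29. Requiring 1.5-fold left 8 rises and 3 falls (all genes: 1378 higher and 1669 lower, 3047 in all), and without probe sets of types x, s and a the TRIM median was 0.20. Without 1 array each, rises were 16 to 18 and falls 8 to 11. Members not called here gained calls elsewhere besides the poly-A scalings: Trim60 lower without NADA replicate 3 and under quantile normalization, median centring, the floor of 50, no trend and array weights (adjusted p 0.0139 to 0.0444), Trim29 lower without NADA replicate 1 or 3, under median centring and with array weights (0.00452 to 0.0491), and Trim39 higher with the floor, no trend and array weights (0.0116 to 0.0377). With no dim filter Trim26 (adjusted p = 0.0574) and Trim59 (0.0543) lost their calls, as did Trim59 after quantile normalization. Same-numbered arrays correlated at 0.164, -0.0984 and 0.0191 in their deviations, so the numbers were not taken as a pairing; a replicate block gave 19 rises and 10 falls, with 7755 genes called. Scaled to the poly-A RNAs including trp, 7 rose and 22 fell (TRIM median -0.38; all genes 963 higher and 7707 lower, median -0.50), and with dap, lys, phe and thr only, chosen after seeing the data, 7 and 24 (-0.45; 741 and 7992, -0.57). Signs turned under the first and second scaling, in that order, for Trim11 (-0.50, -0.57), Trim16 (-0.10, -0.18), Trim17 (-0.23, -0.30), Trim23 (-0.0081, -0.079), Trim26 (-0.36, -0.43), Trim3 (-0.47, -0.54), Trim32 (-0.49, -0.56), Trim39 (-0.39, -0.46), Trim43a (-0.44, -0.51), Trim45 (-0.47, -0.54), Trim46 (-0.28, -0.35), Trim56 (-0.19, -0.26), Trim61 (-0.49, -0.56), Trim65 (-0.31, -0.38) and Trim68 (-0.29, -0.36), and under the second alone for Trim33 (-0.0017), Trim41 (-0.010) and Trim47 (-0.045). These shifts follow from the scaling itself, which lowers every value by the same amount. Dim signal limits Trim2, Trim17 and the 20 untested members.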
